A study of Mus musculus with 6 samples.

Results

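Genes of T and B lymphocytes were read in wire-injured mouse carotid arteries of wild-type mice and of mice without IRF4. The 31 genes were chosen by name, 20 of T cells and 11 of B cells, and 30 of them (19 and 11) had a probe set annotated to that gene alone, out of 18194 genes measured. Lck, the kinase that starts T cell receptor signalling, was not analysed here because no probe set was annotated to it alone. Where a gene had several probe sets, the brightest by its mean over the arrays stood for it. Each of 6 Affymetrix mouse arrays held RNA of 3 to 5 pooled vessels collected 14 days after a wire had been drawn through the artery, with 3 arrays of wild-type mice (WT) and 3 of mice with a global knockout of Irf4 (IRF4 KO). Both genotypes were injured and no uninjured artery was among the samples. The sources used here do not state strain, age, sex or the deleted part of Irf4. Values are log2 probe set intensities, on which a difference of 1 is a doubling, and arrays are named by genotype and replicate number.

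A T cell reads antigen through a receptor that signals by the CD3 chains and the zeta chain Cd247. Lck phosphorylates these chains, the kinase Zap70 docks on them, and the adaptor Lat passes the signal on, with Cd4 or Cd8 as coreceptor. The B cell receptor signals through Cd79a and Cd79b and the kinases Blk and Btk, and is held in check by Cd22. IRF4 is induced by antigen receptors in both lineages and is required for plasma cells and for effector and regulatory T cell programmes. Lymphocytes are a minority among the cells of an injured arterial wall, so their transcripts are diluted in bulk RNA. In such samples fewer cells of a type and less RNA per cell cannot be told apart.

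The arterial identity of the samples was plain, and 2 arrays stood apart. All 13 smooth muscle genes lay above the median of all gene means, 4.89, and the smooth muscle myosin Myh11 read between 11.4 and 12.3 on the 6 arrays. The targeted gene Irf4 read 3.90, 3.64 and 3.38 in WT 1 to 3 and 3.27, 3.75 and 3.70 in IRF4 KO 1 to 3, so it lay under that median in both genotypes and did not check the labels. WT 3 and IRF4 KO 1 had low poly-A control transcripts, which are added to the RNA before labelling (means of 4.93 and 5.14, against 7.35 to 9.26 elsewhere). The same arrays held the cartilage collagen Col2a1 at 12.1 and 12.2, against 3.75 to 5.15 elsewhere, and 12 of 13 cartilage genes lay above every other array there. Ptprc, the CD45 antigen that marks leukocytes, reached 7.70 on WT 3 and 7.68 on IRF4 KO 1 and lay between 2.40 and 4.43 on the others. Results are therefore also given for that pair and for the other 4 arrays.

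Most of the lymphocyte genes were dim on these arrays. Of the 30 genes, 3 lay above the median gene level (10%, where the median leaves 50% of all genes), and all of them were T cell genes: Zap70, Cd3e and Cd8a. The median level of the members was 3.71 for T cell genes and 3.40 for B cell genes, and the B cell genes ranged from 2.60 (Fcrla) to 4.31 (Btk). Probe sets differ in how brightly they report a transcript, so these levels do not rank the genes by abundance. As a scale for dim readings, 20 genes of the retina, lens, germ line, liver, pancreas, pituitary, gut and kidney were read, a list chosen after the members' values were seen. Those genes had a median of 2.89 and quartiles of 2.39 and 3.46, and ranged from 1.96 to 5.58 (the germ line gene Prm1). Of the 30 lymphocyte genes 15 lay above the upper quartile of that list and 1 (Cd8b1, 2.36) below the lower. Only Zap70 lay above Prm1, whose probe set name ends in _x_at, the maker's mark for probes shared with other transcripts. The next highest gene of that list was Pomc at 4.57. Zap70, Cd3e, Cd8a, Icos, Cd6 and Cd4 lay above Pomc, and the other members under it. A place above that quartile therefore does not show that a lymphocyte transcript was detected.

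**Figure D1:**
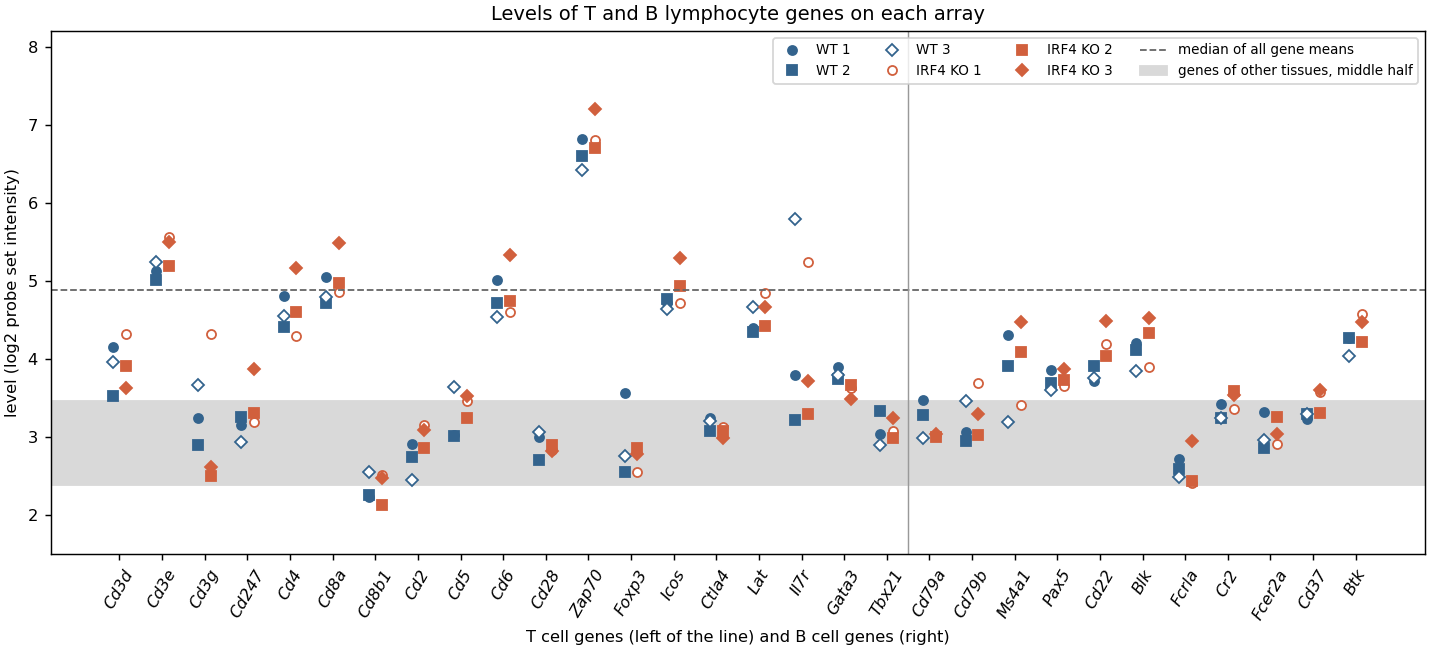
Level of each of the 30 measured T and B lymphocyte genes (x axis) on each array (y axis, log2 intensity), WT in blue and IRF4 KO in orange, with open symbols for WT 3 and IRF4 KO 1. The dashed line is the median of all gene means (4.89) and the grey band spans the quartiles of 20 genes of other tissues (2.39 to 3.46), and nearly all lymphocyte genes lie under the line.

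The cut at the median was close for several genes. Cd8a lay above it by 0.10, while Icos, a costimulatory receptor, and Cd6, a scavenger-receptor family protein of T cells, lay just under it at 4.85 and 4.83. Cd4 read 4.64 and Lat 4.56. Among the members well under the line were the regulatory T cell factor Foxp3 (2.85), the inhibitory receptor Ctla4 (3.12), the Th1 factor Tbx21 (3.10), the costimulatory receptor Cd28 (2.89) and the Cd8 beta chain Cd8b1. Of the B cell genes, the receptor chains Cd79a and Cd79b read 3.14 and 3.25, the lineage factor Pax5 3.74, the CD20 gene Ms4a1 3.90, the complement receptor Cr2 3.40 and the low-affinity IgE receptor Fcer2a 3.06.

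The bright readings of Zap70 and Cd8a came from single probe sets. Zap70 read 6.76 on the probe set used and 3.87 and 3.12 on its other probe sets. Cd8a read 4.98 on the probe set used, whose name ends in _x_at, the maker's mark for probes shared with other transcripts, and 2.41 to 2.96 on 4 others. Cd3e had 1 probe set, and of all 51 probe sets of the members 3 lay above 4.89. Cd22 (4.02 and 2.36), Ms4a1 (3.90 and 2.09) and Cd4 (4.64 and 3.08) were also split, whereas the probe sets of Il7r, the interleukin-7 receptor, differed by 0.067 in their means. When all probe sets of a gene were averaged, 6 members lay above the median of all genes (then 4.26): Cd3e, Cd6, Zap70, Icos, Lat and Btk, but not Cd8a.

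**Figure D2:**
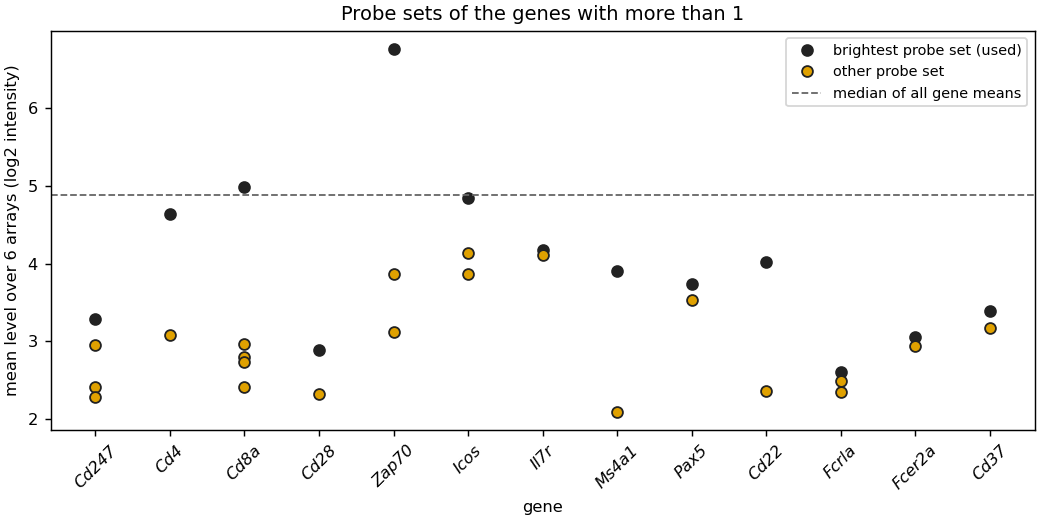
Mean level over the 6 arrays (y axis, log2 intensity) of every probe set of the 13 members that had more than 1 (x axis), with the probe set used in black and the others in yellow. For Zap70 and Cd8a the probe set used is the only one above the dashed median of all genes (4.89).

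The comparison of genotypes asks how loss of IRF4 alters the injured artery, here in its lymphocyte transcripts. No member passed: 0 of 30 had a limma adjusted p under 0.05 over all 18194 genes (0% of all genes did), and 0 of 30 an unadjusted p under 0.05 (1.49% of all genes, 0.407% on the side higher in IRF4 KO and 1.08% on the lower side). The smallest unadjusted p was 0.0512, for Cd22. The adjusted p was 0.999 for every member. The 95% interval of the change lay inside -1 to 1 log2 unit for 28 of the 30 genes, all but Il7r (-1.79 to 1.43) and Cd3g (-1.20 to 0.95). Whether RMA, which models a common background, narrowed the changes of dim genes was not tested.

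**Figure D3:**
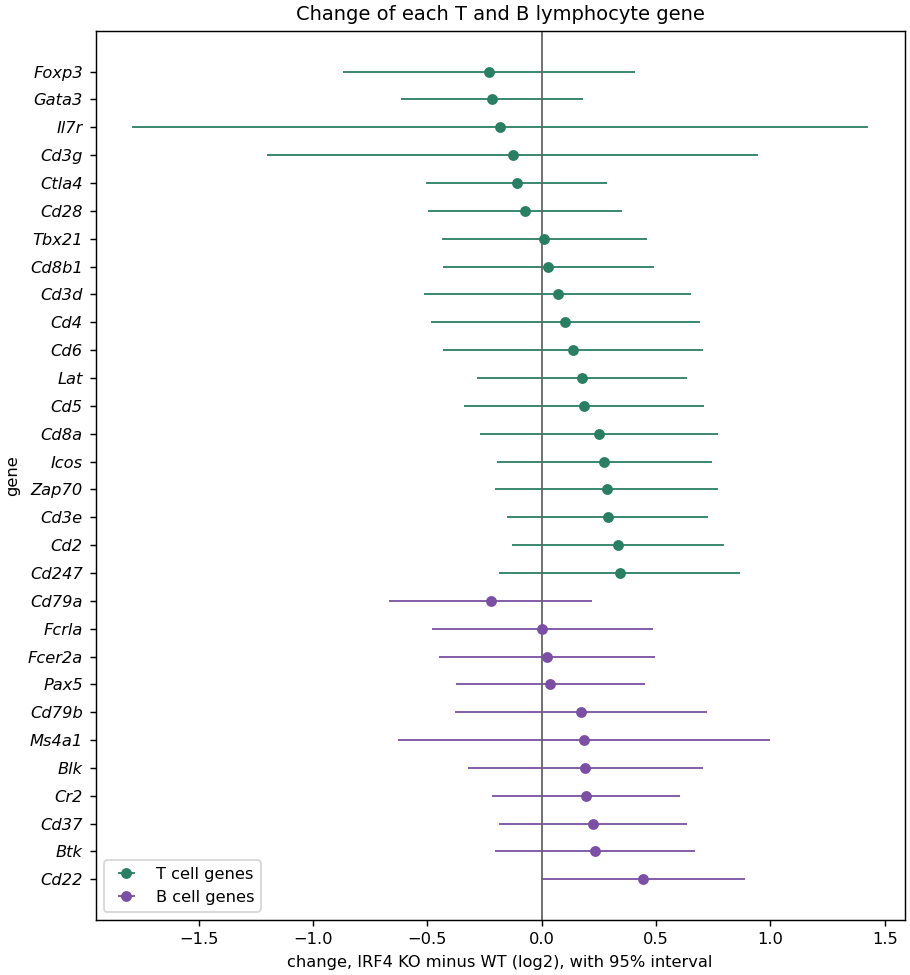
Change of each of the 30 genes (y axis), IRF4 KO minus WT in log2 units (x axis), with the 95% interval of the limma fit over 3 arrays per genotype, T cell genes in green and B cell genes in purple. Every interval crosses 0, that of Cd22 barely (-0.0029 to 0.89), and those of Il7r and Cd3g are the widest.

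Among the T cell receptor chains, Cd3e read 5.13, 5.01 and 5.25 in WT 1 to 3 and 5.57, 5.19 and 5.50 in IRF4 KO 1 to 3. The WT 3 array lay above IRF4 KO 2, so the genotypes overlapped. The change was 0.29 (SE 0.19, limma adjusted p = 0.999), being 0.32 from WT 3 to IRF4 KO 1 and 0.27 in the remaining 4 arrays. Cd247 read 3.16, 3.26 and 2.94 in WT and 3.20, 3.31 and 3.87 in IRF4 KO, with IRF4 KO 3 well above the rest and a change of 0.34 (SE 0.23). That change was 0.14 without IRF4 KO 3, and 0.26 in the pair of arrays that stood apart against 0.38 in the remaining 4. On its 3 other probe sets Cd247 differed by between -0.091 and 0.097. Cd3d differed by 0.071 and Cd3g by -0.13. Cd3d, Cd3e and Cd3g were each highest on IRF4 KO 1.

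The receptor-proximal kinase and adaptor gave values of the same small size. Zap70 read 6.82, 6.61 and 6.43 in WT and 6.80, 6.70 and 7.20 in IRF4 KO, a change of 0.28 (SE 0.21). Only IRF4 KO 3 lay above WT 1, and the change was 0.14 without IRF4 KO 3 and 0.19 without WT 3. From WT 3 to IRF4 KO 1 it was 0.38, and 0.24 in the remaining 4 arrays. Its other probe sets differed by -0.11 and 0.19. Lat differed by 0.18 (SE 0.20).

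Of the coreceptors, Cd8a read 5.06, 4.72 and 4.80 in WT and 4.85, 4.98 and 5.49 in IRF4 KO, a change of 0.25 (SE 0.23). WT 1 lay above IRF4 KO 1 and IRF4 KO 2, and without IRF4 KO 3 the change was 0.058. It was 0.057 from WT 3 to IRF4 KO 1 and 0.35 in the remaining 4 arrays. Cd4 differed by 0.10 (SE 0.26) and Cd8b1 by 0.028 (SE 0.20). Cd4 and Cd8a were both highest on IRF4 KO 3.

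Cd2, an adhesion receptor that binds CD48 on partner cells in mice, had the smallest p among the T cell genes (0.135 unadjusted). It read 2.92, 2.74 and 2.45 in WT and 3.16, 2.87 and 3.09 in IRF4 KO, a change of 0.34 (SE 0.20), with WT 1 above IRF4 KO 2. The arrays that stood apart gave 0.71 and the remaining 4 gave 0.15 (unadjusted p = 0.585 by limma), and the change was 0.21 without WT 3. Cd5, a negative regulator of receptor signalling, differed by 0.18, Cd6 by 0.14 and Icos by 0.27. Cd28 differed by -0.074 and Ctla4 by -0.11.

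Gata3, the factor of Th2 cells and of early T cell development, was the 1 T cell gene whose genotypes did not overlap. It read 3.90, 3.74 and 3.80 in WT and 3.64, 3.66 and 3.49 in IRF4 KO, so every IRF4 KO array lay under every WT array. The change was -0.22 (SE 0.17, unadjusted p = 0.247), being -0.16 from WT 3 to IRF4 KO 1 and -0.24 in the remaining 4 arrays. Foxp3 differed by -0.23 (SE 0.28), where WT 1 at 3.57 stood above the other 5 arrays (2.56 to 2.86). Tbx21 differed by 0.012.

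Among the B cell genes Cd22, an inhibitory receptor that binds sialic acid, showed the largest difference of the members. It read 3.72, 3.92 and 3.76 in WT and 4.20, 4.04 and 4.48 in IRF4 KO, with no overlap. The change was 0.44 (SE 0.19, 1.36-fold), and it came to 0.44 both from WT 3 to IRF4 KO 1 and in the remaining 4 arrays. The unadjusted limma p was 0.0459 with the array set as a block (adjusted p = 0.995, and 3.68% of all genes had an unadjusted p under 0.05), 0.134 with the replicate number as a block and 0.128 in the 4 arrays alone. The other probe set of Cd22, at 2.36, differed by 0.083, and its genotypes overlapped.

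Cd37, a tetraspanin of mature B cells, also did not overlap. It read 3.23, 3.30 and 3.30 in WT and 3.58, 3.31 and 3.60 in IRF4 KO, a change of 0.22 (SE 0.18, unadjusted p = 0.248), with IRF4 KO 2 only just above WT 3. It was 0.28 from WT 3 to IRF4 KO 1 and 0.19 in the remaining 4 arrays. The other probe set of Cd37 differed by 0.49, but its genotypes overlapped, with IRF4 KO 2 (2.80) under WT 2 (2.85) and WT 3 (3.30). Btk, a kinase that myeloid cells also use, read 4.27, 4.27 and 4.04 in WT and 4.58, 4.22 and 4.48 in IRF4 KO, a change of 0.23 (SE 0.19), with IRF4 KO 2 under 2 of the WT arrays. The change of Btk was 0.54 from WT 3 to IRF4 KO 1 and 0.080 in the remaining 4 arrays.

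The remaining B cell genes differed little. Cd79a, at -0.22 (SE 0.19), was the only B cell gene with a lower mean in IRF4 KO, and its partner Cd79b differed by 0.17 (SE 0.24). The changes were 0.19 for Blk, 0.19 for Cr2, 0.18 for Ms4a1, 0.038 for Pax5, 0.022 for Fcer2a and 0.0032 for Fcrla, an intracellular Fc-receptor-like protein of B cells. On the other probe sets Ms4a1 differed by -0.073 and Fcrla by -0.20 and -0.16. Of the 13 genes with several probe sets, 6 had all of them on the same side of 0.

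In count, 3 of 30 members did not overlap between genotypes, which is 10% where 5.68% of all genes did so. Of these, 2 were higher in IRF4 KO (2.37% of all genes) and 1 was lower (3.31%). A larger count lay on the higher side without regard to overlap: 23 of 30 members (13 of 19 T cell and 10 of 11 B cell genes) had the higher mean in IRF4 KO, 76.7% against 49.7% of all genes. The median change was 0.10 for T cell genes and 0.18 for B cell genes, and -0.0015 over all genes.

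Dim genes in general lay on that side. Among all genes under the median level 60.5% were higher in IRF4 KO, against 38.9% of those above it, and 14 of the 20 genes of other tissues were higher (median change 0.047). IRF4 KO 3 was the highest array for 12 of the 30 members (40%) and for 24.9% of all genes. For the genes of other tissues IRF4 KO 3 or WT 1 was the highest array in 18 of 20 cases. Over all probe sets these arrays had the highest medians (4.12 and 4.05, against 3.94 to 3.99). Over the genes used here IRF4 KO 3 had the lowest median (4.83), and WT 1 had 4.86, against 4.85 to 4.98 on the other arrays. The level under which 5% of these genes lay was 2.30 on both arrays, against 2.10 to 2.18 elsewhere. After quantile normalization 18 of 30 members were higher in IRF4 KO, against 51.5% of all genes and 53.4% of those under the median level. The median change was then 0.14 for T cell and for B cell genes, and 5 of 30 members did not overlap (7.23% of all genes). Without IRF4 KO 3, the members' median change was 0.057 and 18 of 30 were higher (48.8% of all genes). Other settings kept more members on that side. The count was 23 with array median subtraction (51.8% of all genes) or all probe sets averaged (52.1%), and 22 with array weights (51%). With 1 of the other arrays left out it ran from 19 (without WT 2, 48.8%) to 24 (without IRF4 KO 2, 49.5%). The part of dim-gene levels in the members' tilt was not tested.

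In both array sets more members were higher than lower in IRF4 KO, but not every gene kept its sign. From WT 3 to IRF4 KO 1, 20 of 30 members were higher with a median of 0.074 (9126 of all 18194 genes were higher). In the remaining 4 arrays 23 were higher in IRF4 KO with a median of 0.15 (9121 of all genes). The sets gave opposite signs in 11 members, while 16 were higher in both and 3 lower in both. These sign counts were not made over all genes. With 2 arrays per genotype left, 12 members did not overlap (29.9% of all genes), 9 with the higher values in IRF4 KO (14.1%) and 3 with the lower (15.7%). The 9 were Cd3e, Cd247, Cd5, Icos, Lat, Cd22, Blk, Cr2 and Cd37, and the 3 were Cd3g, Gata3 and Cd79a. In that fit 0 members had an adjusted p under 0.05 (0.0275% of all genes did, by limma), the smallest being 0.999.

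WT 3 and IRF4 KO 1 separated most macrophage and pan-leukocyte genes, but lymphocyte genes in counts no higher than those of all genes. On WT 3 and IRF4 KO 1, 14 of 16 macrophage genes and 9 of 13 pan-leukocyte genes lay above all other arrays (17.4% of all genes), with median differences of 3.75 and 2.15. Of the 30 members 4 did so, Il7r, Cd3g, Cd79b and Cd8b1, and 4 lay below all others (19.8% of all genes), Ms4a1, Blk, Cd6 and Pax5. The members' median difference was -0.13, with 0.015 for T cell genes and -0.16 for B cell genes. Of the members 27 of 30 lay under the median gene level, and the part of low levels in these counts was not tested.

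**Figure D4:**
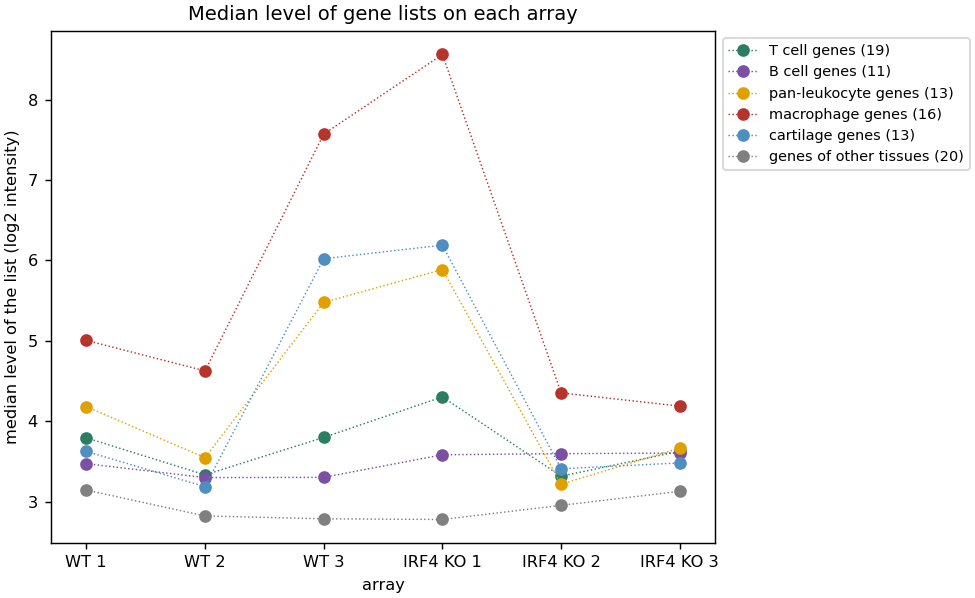
Median level (y axis, log2 intensity) of 6 gene lists on each array (x axis), with the number of measured genes in brackets. Macrophage, pan-leukocyte and cartilage genes stand high on WT 3 and IRF4 KO 1. The T cell median is also highest on IRF4 KO 1 (4.30), then on WT 3 (3.80), against 3.31 to 3.79 elsewhere. The B cell median lies between 3.30 and 3.60.

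The members that separated the array sets did so by different amounts. Il7r, whose ligand keeps resting lymphocytes alive, stood at 5.79 on WT 3 and 5.24 on IRF4 KO 1 and at 3.22 to 3.79 elsewhere, a difference of 2.01. On its other probe set the same arrays were again highest, but only at 4.24 and 4.50, against 3.83 to 4.16. Cd3g read 3.67 and 4.32 there and 2.50 to 3.25 elsewhere, a difference of 1.18. Cd3e and Cd3d, which form the receptor with it, differed by 0.20 and 0.34 between the sets and overlapped.

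Cd79b read 3.47 and 3.69 against 2.95 to 3.29, whereas Cd79a, its obligate partner, differed by -0.20. Ms4a1 went the other way, at 3.20 and 3.42 on WT 3 and IRF4 KO 1 and 3.92 to 4.47 elsewhere, a difference of -0.89. Blk followed it with -0.42. Cd8b1 differed by only 0.26, Pax5 by -0.16 and Cd6 by -0.38.

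**Figure D5:**
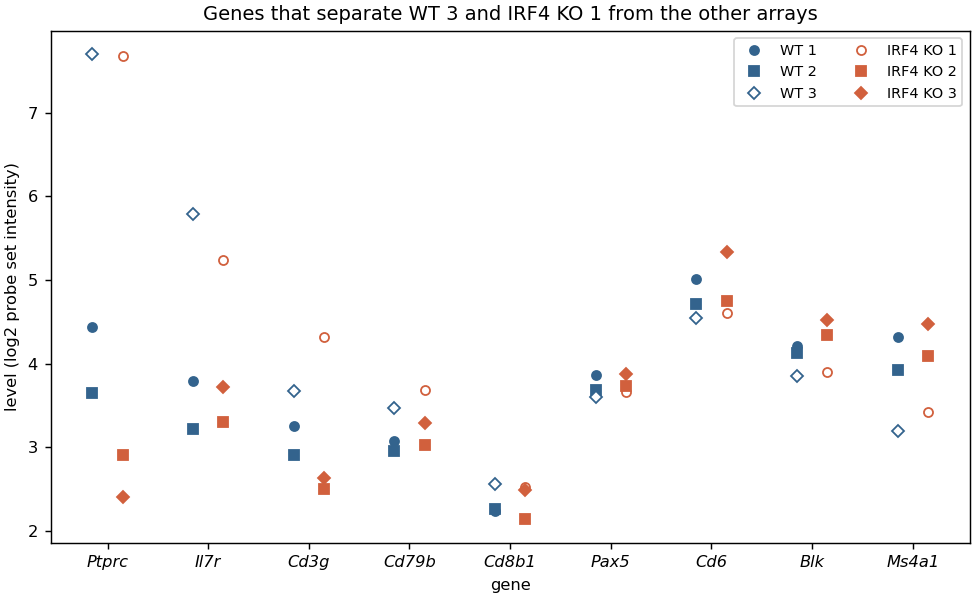
Level on each array (y axis, log2 intensity) of the 8 lymphocyte genes whose values on WT 3 and IRF4 KO 1 (open symbols) did not overlap those of the other 4 arrays, with Ptprc for scale (x axis). Ptprc differs by 4.34 between the sets, Il7r by 2.01 and Ms4a1 by -0.89.

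Further genes of the same lineages read much like the members. Of 20 other T cell genes 0 passed over all genes (13 higher, 7 lower in IRF4 KO, median change 0.11), and 2 lay above the median gene level. The adaptor Skap1 (WT 2.85 ± 0.15, IRF4 KO 3.11 ± 0.20, mean ± SD of 3 arrays) and the receptor Cd96 (WT 4.70 ± 0.35, IRF4 KO 5.04 ± 0.44) had the smallest p. Of 22 other B cell genes 0 passed (14 higher, 8 lower, median 0.13), and 5 lay above the median level. Fcgr2b, the inhibitory Fc receptor that macrophages share, read 7.46, 7.41 and 7.73 in WT and 7.88, 7.90 and 8.29 in IRF4 KO, a change of 0.49 (SE 0.20, unadjusted p = 0.0406, limma adjusted p = 0.999). The follicular homing receptor Cxcr5 read 2.46 ± 0.24 and 2.82 ± 0.12.

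Of 14 natural killer and cytotoxic genes 0 passed and all 14 were higher in IRF4 KO (49.7% of all genes), with a median of 0.18. Only 1 of the 14 lay above the median gene level, and 60.5% of all genes under it were higher in IRF4 KO. IRF4 KO 3 was the highest array for 7 of them, and after quantile normalization 13 were higher. The part of dim-gene levels was not tested here either. The chemokine gene Ccl5 read 6.12, 5.86 and 5.68 in WT and 7.09, 6.91 and 6.91 in IRF4 KO (change 1.08, SE 0.19, limma adjusted p = 0.375), and the granule protein Nkg7 3.61 ± 0.33 and 4.08 ± 0.39. Of 9 lymphoid tissue genes 0 passed (5 higher, 4 lower). Among them Ltb, a lymphotoxin of lymphocytes, read 3.22 ± 0.56 and 3.60 ± 0.65, and its receptor Ltbr 6.41 ± 0.35 and 6.70 ± 0.73, both without overlap higher on WT 3 and IRF4 KO 1 (by 1.05 and 0.88). Of 9 thymocyte and early lymphocyte genes 0 passed and 0 lay above the median level, with Ptcra at 3.17 ± 0.32 and 3.60 ± 0.35 and Arpp21 at 3.05 ± 0.15 and 3.39 ± 0.45.

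Some of these companion genes also separated the array sets, in counts near those of all genes (17.4% higher and 19.8% lower on WT 3 and IRF4 KO 1). Among the other T cell genes 5 of 20 were higher there without overlap and 3 lower, and among the other B cell genes 4 of 22 were higher and 4 lower. Chosen after their values were seen, the largest were Cd72, a B cell coreceptor (3.16), and Thy1, which fibroblasts carry as well as mouse T cells (2.64). The adaptors Blnk and Lcp2 and the kinase Syk, which myeloid cells also use, were higher there by 1.88, 1.37 and 1.20, and Cd24a, carried by many epithelial and immature cells, was lower by 2.13 (difference -2.13). Macrophage genes were higher on the same arrays, and their part in these values was not tested.

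Promoter sequence was read for the members because IRF4 binds DNA at known motifs. RefSeq windows of GRCm38.p6, from 250 bases before to 50 after a gene's start, were at hand for 22 of the 31 genes (28 windows). The Ets-IRF composite element, GGAANNGAAA, was searched on both strands and found in 1 member window, that of Cd8a, and in 2.72% of all 32851 windows. The core of the interferon response element, GAAANNGAAA, was found in 1, that of Fcrla, and in 3.44% of all windows. The motifs can overlap and were counted apart. The 250 bases before the start are shown for these genes and for Cd22, the member with the largest difference, which had neither motif. Capitals mark the matches, which begin at positions -158 and -136 from the gene's start in Cd8a (both on the opposite strand) and at -192 in Fcrla, the last base before the start being -1. Cd8a lies at chr6:71373177-71373426 (plus strand), Fcrla at chr1:170927584-170927833 (minus strand) and Cd22 at chr7:30879029-30879278 (minus strand), all written 5′ to 3′ along the gene.
Cd8a: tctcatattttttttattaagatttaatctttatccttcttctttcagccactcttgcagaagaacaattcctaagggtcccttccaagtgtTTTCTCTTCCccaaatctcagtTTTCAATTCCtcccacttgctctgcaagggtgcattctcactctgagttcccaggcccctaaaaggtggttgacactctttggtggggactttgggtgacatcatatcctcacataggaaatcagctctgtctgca
Fcrla: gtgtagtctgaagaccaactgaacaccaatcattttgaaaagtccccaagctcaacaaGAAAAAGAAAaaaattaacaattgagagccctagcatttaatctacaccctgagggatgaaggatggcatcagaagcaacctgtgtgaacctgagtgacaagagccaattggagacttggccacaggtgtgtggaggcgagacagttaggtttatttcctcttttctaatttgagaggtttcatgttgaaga
Cd22: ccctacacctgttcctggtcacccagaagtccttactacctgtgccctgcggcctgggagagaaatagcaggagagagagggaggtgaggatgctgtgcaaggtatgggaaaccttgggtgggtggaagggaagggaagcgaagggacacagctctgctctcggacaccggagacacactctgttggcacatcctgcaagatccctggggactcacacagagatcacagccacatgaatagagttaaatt
A match describes the letters only, and Cd8a and Fcrla differed between genotypes by 0.25 and 0.0032.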

How the data were processed

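RNA of 6 pooled artery samples was hybridised as biotin-labelled cRNA made from 400 ng. The authors deposited log2 intensities of probe sets, made with Affymetrix Expression Console and RMA per the submitters' processing notes, which give no versions. Of 45101 probe sets, 34958 had 1 gene symbol in the platform annotation, 932 had several and 9211 none; only the first kind was used, and Entrez numbers matched to RefSeq (GRCm38.p6) for 34754 of them changed 0 symbols. Each of 18194 genes took its brightest probe set.

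IRF4 KO was compared with WT by limma 3.58.1 in R 4.3.3 (lmFit, eBayes, two-sided, no covariate), adjusted by Benjamini-Hochberg over all genes and called under 0.05. The labels call the replicates biological. The test was tested on simulated data. The array sets were split at the midpoint of the range of the mean of 24 poly-A control probe sets.

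Members and lists were chosen with earlier results of these data known. Full values are given for members above the median level, without overlap, or among the 3 smallest p of their lineage; for the other lymphocyte lists up to 2 genes with the smallest p are named, and lists of other cells are given by counts. The alternatives were a replicate block, all probe sets of a gene, dim genes left out, array median subtraction, quantile normalization, robust trend, array weights, the poly-A block, leaving out arrays and a threshold of 0.1. Array weights were fitted gene by gene. The number of arrays limits the precision.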

Additional observations from a re-analysis of the deposited data

How the results depend on the processing

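No member passed in any alternative run (0 of 30, or of the 3 kept when dim genes were left out, also at a threshold of 0.1), with the smallest adjusted p among members at 0.666 (Cr2, array weights). The changes of the 9 genes given with full values kept their sign in every alternative that held them. Most of these genes were chosen for no overlap or a small p in these data. The block and robust trend fits cannot alter a change here, so the kept signs are no independent support. An unadjusted p under 0.05 was reached by Cd22 alone with quantile normalization (2.13% of all genes) and with the poly-A block (3.68%). With array weights it was reached by Cr2 alone (7.39% of all genes). When 1 array was left out, 0 to 1 members reached it (Cd3g, without IRF4 KO 1, where 4.08% of all genes did). The count without overlap was 3 over 6 arrays (5.68% of all genes) and 2 with all probe sets averaged (5.73%). It was 5 with array median subtraction or quantile normalization (5.01% and 7.23% of all genes). With dim genes left out it was 0 of the 3 members kept (5.87% of the genes kept). It was 12 without WT 3 and IRF4 KO 1 (29.9% of all genes), and 4 to 8 without 1 array. Fewer arrays make overlap rarer: 4 of 30 members did not overlap without IRF4 KO 3 (11% of all genes), 6 without IRF4 KO 2 (12.2%), 7 without WT 1 (16.3%), WT 2 (12.1%) or WT 3 (14.2%), and 8 without IRF4 KO 1 (20.2%). The count above the median level was 3 over 6 arrays, 6 with all probe sets averaged, 5 without WT 3 and IRF4 KO 1, and 2 to 5 without 1 array (5 without WT 3). The median change of the T cell genes was 0.28 with dim genes left out, which keeps 3 of them and no B cell gene, so no B cell median exists there. Without 1 array it was 0.058 (without IRF4 KO 3) to 0.21 (without IRF4 KO 2) for the T cell genes, and 0.055 to 0.20 for the B cell genes, with 0.055 without IRF4 KO 3 and 0.087 without WT 3. Over all genes 0 passed on 6 arrays, 24 with array weights and 5 without WT 3 and IRF4 KO 1. An unadjusted p under 0.05 was held by 271 genes on 6 arrays, 1344 with array weights, 705 without WT 3 and IRF4 KO 1, 670 with the poly-A block, 742 without IRF4 KO 1, 166 without IRF4 KO 3 and 128 with the replicate block.

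The replicate number as a block left 0 members past the threshold and the changes as they were; same-numbered arrays correlated at -0.52, 0.37 and -0.62 in their deviations, so the numbers share no pairing. Most members, 27 of 30, lay under the median gene level.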
